A study of Homo sapiens with 6 samples.

Results

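The genes described here are 10 transcripts of the integrated stress response: ATF4, DDIT3, TRIB3, CHAC1, ASNS, SESN2, PSAT1, PHGDH, DDIT4 and PPP1R15A. They were chosen by name, with earlier results of these data known, and all 10 were found among the 20036 Ensembl genes of the deposited table. Their levels were measured by RNA sequencing in KGN cells, an established line that came from a human granulosa cell tumour of the ovary. Wild-type KGN cells were transfected with a negative control small interfering RNA (siNC) or with 1 of a pair of small interfering RNAs against OGT (siOGT1 and siOGT2), with 2 libraries per group and 6 in all. The product of OGT, O-GlcNAc transferase, adds single N-acetylglucosamine sugars to proteins of the nucleus and cytosol. All groups received an siRNA with a Lipofectamine reagent and were harvested 48 hours later, so no group of untransfected cells stands beside them. The labels do not say whether the libraries of a group came from separate cultures, so the p-values measure the spread between these libraries, which may be technical.

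In the integrated stress response, any of 4 kinases phosphorylates the alpha subunit of the translation factor eIF2. General protein synthesis then slows, while the mRNA of ATF4 is translated more efficiently because of short upstream reading frames. ATF4, a basic leucine zipper factor that pairs with C/EBP proteins, switches on genes for amino acid synthesis and transport, tRNA charging, restraint of mTORC1 and cell death, and PPP1R15A among its downstream genes directs the phosphatase that ends the response. Because much of this control is translational, the level of ATF4 mRNA is not a measure of ATF4 protein or of its activity.

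A short stretch of promoter is shown for the 3 genes whose promoter held 1 of a pair of motifs bound by ATF and C/EBP factors, so that their letters can be set beside the levels given below. The motifs were the C/EBP-ATF response element, spelled TGATGNAA, and the cyclic AMP response element, spelled TGACGTCA. Both strands were searched in RefSeq promoter windows (GRCh38.p14) from 250 bases before to 50 bases after each start, and all 10 genes had at least 1 window. No window of the 10 genes held both motifs, so no matches overlapped. The sequences run 5′ to 3′ along the strand of the gene, with the motif in capitals.
CHAC1: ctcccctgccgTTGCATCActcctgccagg
ASNS: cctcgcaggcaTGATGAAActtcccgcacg
PPP1R15A: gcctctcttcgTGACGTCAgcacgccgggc
The CHAC1 stretch (chr15:40953251-40953280, plus strand) held the element in reverse orientation, at -209 to -202 from the start. The ASNS stretch (chr7:97872458-97872487, minus strand) held it in forward orientation at -68 to -61, in 1 of the 2 windows of that gene. The PPP1R15A stretch (chr19:48872352-48872381, plus strand) held the palindromic cyclic AMP response element at -58 to -51. These distances count from the RefSeq starts. The gene positions given below are from GENCODE release 29, and by those the CHAC1 and ASNS stretches lie inside the genes. Of 35116 promoter windows of the same length, 3.62% held TGATGNAA and 1.85% held TGACGTCA. A match describes the letters only, and the absence of a match in the other genes says only that these letters were not in the window searched.

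The knockdown was present in every siOGT library: OGT mRNA stood at 58.3% of its siNC level with siOGT1 and at 63.2% with siOGT2. Whole read numbers recovered from the deposited values summed to between 16596163 and 21204091 per library. Of 14 granulosa markers only FSHR was listed at 0 everywhere, and their summed level ran from 59.6 to 67.2 FPKM (fragments per kilobase of transcript, scaled to the mapped fragments of the library). Only 8 of the 14 had a mean of at least 1 FPKM. The summed level of 8 leukocyte markers, with LYZ among those at 0, was 1.57 to 1.72 FPKM with siNC, 1.21 in both siOGT1 libraries and 1.16 to 1.31 with siOGT2. For 6 endothelial markers, none at 0 throughout, it was 2.79 to 2.96, 2.08 to 2.45 and 2.28 to 2.68. For 7 theca and stroma markers, none at 0 throughout and mostly COL1A1, it was 282 to 295, 302 to 323 and 307 to 310.2. Mitochondrial transcripts, read as a sign of RNA quality, took 2.01% to 2.03% of reads with siNC, 2.09% to 2.11% with siOGT1 and 2.33% to 2.37% with siOGT2. Of the 13 mitochondrial transcripts, 1 rose with siOGT1 (7.69%) and 11 with siOGT2 (84.6%), by the test described below. Of all genes tested, 9.51% and 22.1% rose. The part of the mitochondrial transcripts in the results below was not tested.

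The 10 genes covered a wide range of levels in control cells. PPP1R15A, at 352 ± 9.20 FPKM, and ATF4, at 293 ± 10.1 FPKM (SD, n = 2), each stood above 99.8% of the listed genes. DDIT3 followed at 81.4 FPKM, and SESN2, PSAT1, DDIT4 and TRIB3 lay between 12.1 and 23.4 FPKM. CHAC1 stood at 2.59 FPKM, PHGDH at 1.27 and ASNS at 0.101. No neighbours in this order overlapped between their siNC libraries. With siOGT1 the order was kept. With siOGT2 it was not: ATF4 (284 FPKM) stood above PPP1R15A (260.3), and PSAT1 (29.6) and DDIT4 (21.5) stood above SESN2 (19.8), again with no overlap between the libraries of neighbours.

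**Figure D1:**
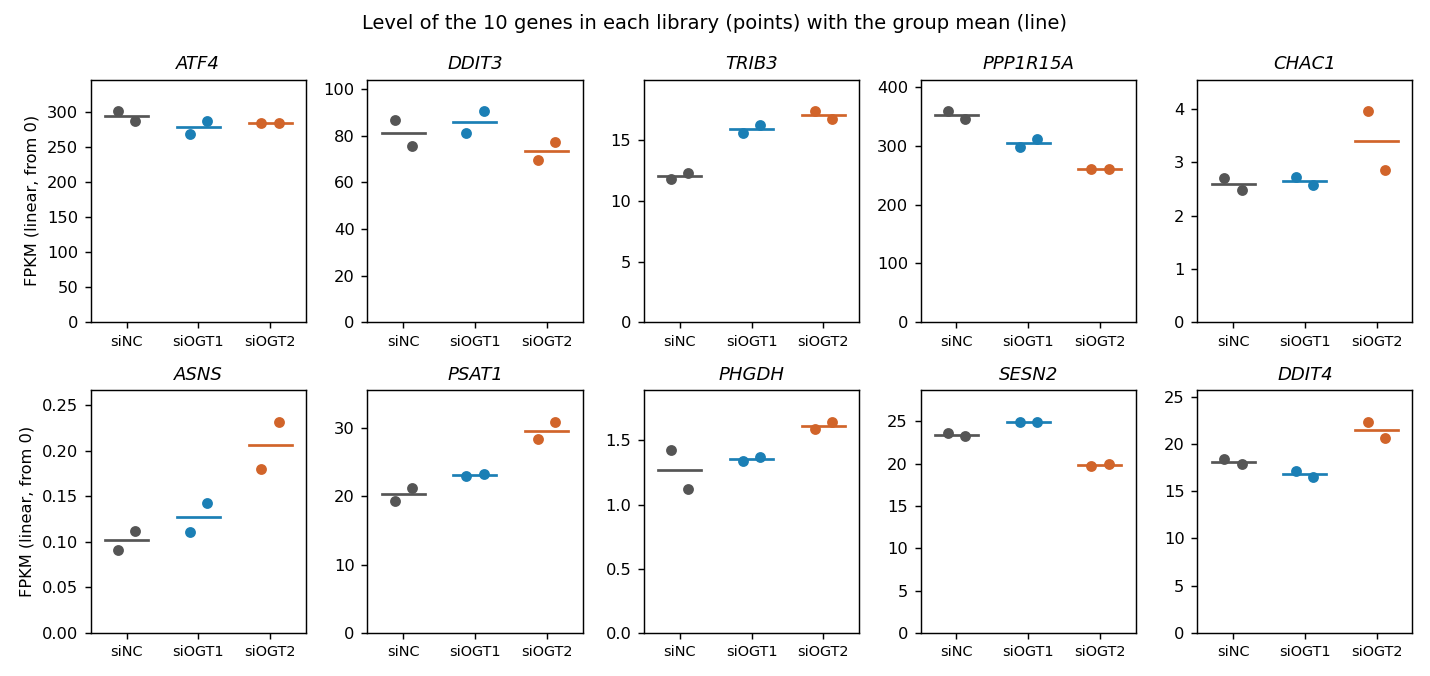
Level of the 10 genes in FPKM on a linear axis from 0, with 1 point per library (2 per group) and a line at the group mean. PPP1R15A steps down and TRIB3 and PSAT1 step up from siNC to siOGT1 and siOGT2, whereas ATF4 stays between 268 and 301 FPKM in all 6 libraries.

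The genes of the response did not move as a block. With siOGT1, 2 of the 9 genes tested rose (TRIB3 and PSAT1) and 1 fell (PPP1R15A), and with siOGT2, 3 rose (TRIB3, PSAT1 and DDIT4) and 2 fell (PPP1R15A and SESN2), while neither ATF4 nor DDIT3 passed the test with either siRNA. A gene was called when limma on log2(FPKM + 1) gave it a p below 0.05 after Benjamini-Hochberg adjustment across all 10547 genes with a mean of at least 1 FPKM. Over all genes tested, 9.51% were called higher and 8.1% lower with siOGT1, 17.6% in all, and 22.1% higher and 13.4% lower with siOGT2, 35.5% in all. The genes of the response thus passed in 33.3% and 55.6% of those tested, a difference from the background of 1 or 2 genes in so short a list. These genes and the lists below were chosen with earlier results of these data known. Their shares beside the background are therefore descriptions and not tests. The median log2 fold change of the 9 genes tested was 0.05 with siOGT1 and 0.21 with siOGT2, beside 0.032 and 0.045 for all genes. The range was -0.21 to 0.37 with siOGT1 and -0.43 to 0.53 with siOGT2. Both comparisons share their siNC libraries, so their calls are not independent. Over all genes the balance of directions depended on scaling: 1003 higher and 854 lower with siOGT1 became 574 and 998 under a trimmed mean of log ratios, and 2329 and 1411 with siOGT2 became 1549 and 1751. In bulk RNA, a change in every cell and a change in the share of cells that express a gene cannot be told apart.

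**Figure D2:**
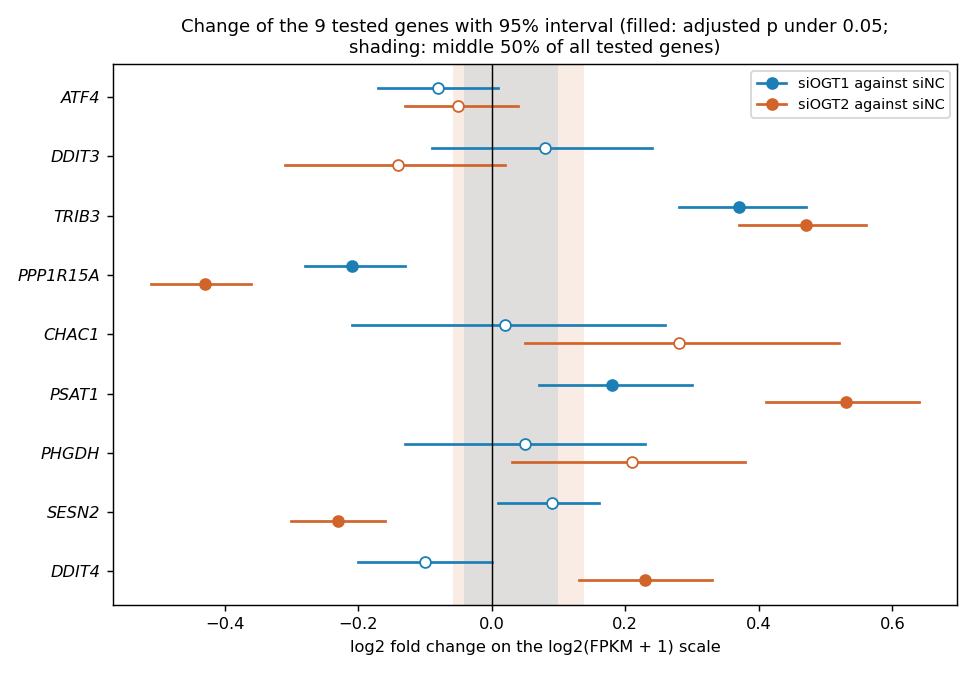
Log2 fold change against siNC on the log2(FPKM + 1) scale for the 9 genes tested, with 95% intervals; filled points passed an adjusted p of 0.05, and the shading spans the middle 50% of all tested genes (-0.041 to 0.099 with siOGT1, -0.058 to 0.138 with siOGT2). TRIB3 and PSAT1 lie to the right with both siRNAs and PPP1R15A to the left, while SESN2 and DDIT4 lie on opposite sides for siOGT1 and siOGT2.

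ATF4 (ENSG00000128272, GRCh38 chromosome 22, 39519695 to 39522685, plus strand), the transcription factor at the centre of the response, was listed at 301 and 286 FPKM with siNC, 268 and 287 with siOGT1, and 284 in both siOGT2 libraries. The siOGT1 libraries overlapped those of siNC, and the siOGT2 libraries lay just below them. The log2 fold change was -0.08 with siOGT1 (95% interval -0.17 to 0.01, adjusted p = 0.195) and -0.05 with siOGT2 (-0.13 to 0.04, adjusted p = 0.374). These intervals do not include a fall of more than 0.17 or a rise of more than 0.04 on the log2 scale. Each library held between 12419 and 16078 reads of ATF4.

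DDIT3 (ENSG00000175197, chromosome 12, 57516588 to 57521737, minus strand) encodes CHOP, a C/EBP family factor induced downstream of ATF4 and linked to cell death. It was listed at 87.0 and 75.9 FPKM with siNC, 81.1 and 90.6 with siOGT1 and, for siOGT2, 69.7 and 77.5. Both siOGT groups overlapped the siNC libraries, and the siOGT1 libraries lay above those of siOGT2. The change was 0.08 with siOGT1 (95% interval -0.09 to 0.24, adjusted p = 0.519) and -0.14 with siOGT2 (-0.31 to 0.02, adjusted p = 0.158). Its exons share 355 of 1307 bases with MARS on the opposite strand, whose reads cannot be told apart if strand was not used in counting. They share 105 with a gene model on the same strand, AC022506.1, where strand would not separate the reads. When limma's voom was run on recovered reads, DDIT3 passed as lower with siOGT2 (-0.15, adjusted p = 0.0344).

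TRIB3 (ENSG00000101255, chromosome 20, 362835 to 397559, plus strand) encodes a pseudokinase that ATF4 and CHOP induce and that inhibits AKT and feeds back on ATF4. It was listed at 11.8 and 12.3 FPKM with siNC, against 15.6 and 16.2 with siOGT1, while siOGT2 gave 17.4 and 16.8. All 4 siOGT libraries stood above both siNC libraries. TRIB3 rose to 132% of its siNC level with siOGT1 (log2 fold change 0.37, SE 0.0410, adjusted p = 0.000302) and to 141% with siOGT2 (0.47, SE 0.0410, adjusted p = 4.44e-05). Between siOGT1 and siOGT2 no difference passed for TRIB3 (-0.09, 95% interval -0.19 to 0.00, adjusted p = 0.158). Over all alternatives the log2 fold change ran from 0.29 to 0.40 with siOGT1 and from 0.37 to 0.50 with siOGT2, and both calls held in each.

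PPP1R15A (ENSG00000087074, chromosome 19, 48872392 to 48876057, plus strand) encodes GADD34, the inducible subunit that directs protein phosphatase 1 to eIF2 alpha and so ends the response. It was the only gene of the 10 that fell with both siRNAs. The libraries held 359 and 346 FPKM with siNC, 298 and 312 with siOGT1 and, for siOGT2, 260.1 and 260.4. The 3 groups did not overlap. PPP1R15A fell to 86.7% of its siNC level with siOGT1 (log2 fold change -0.21, SE 0.0331, adjusted p = 0.0028) and to 73.9% with siOGT2 (-0.43, SE 0.0331, adjusted p = 1.72e-05). It was higher with siOGT1 than with siOGT2 by 0.23 (SE 0.0331, adjusted p = 0.00167). Over all alternatives the calls against siNC held, with log2 fold changes from -0.24 to -0.17 and from -0.47 to -0.41. It is the gene with the cyclic AMP response element shown above.

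CHAC1 (ENSG00000128965, chromosome 15, 40952962 to 40956519, plus strand) encodes an enzyme that breaks down glutathione and is among the genes that ATF4 raises most in stressed cells. It was listed at 2.71 and 2.47 FPKM with siNC, against 2.73 and 2.57 with siOGT1, while siOGT2 gave 3.95 and 2.85. The siOGT2 libraries lay above the others but far apart, with 147 and 98 reads behind them. The change was 0.02 with siOGT1 (95% interval -0.21 to 0.26, adjusted p = 0.9) and 0.28 with siOGT2 (0.05 to 0.52, adjusted p = 0.0596), and neither passed. One library decided the latter value: without siOGT2 replicate 2 it was 0.47 and passed (adjusted p = 0.00607), and without siOGT2 replicate 1 it was 0.10 (adjusted p = 0.37). Blocking on the replicate number, it passed as well (0.28, adjusted p = 0.0265).

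The enzymes of serine synthesis, PHGDH and PSAT1, carry out successive steps from a glycolytic intermediate and are classic targets of ATF4. PSAT1 (ENSG00000135069, chromosome 9, 78297143 to 78330093, plus strand) was listed at 19.3 and 21.2 FPKM with siNC, 23.0 and 23.3 with siOGT1 and, for siOGT2, 28.4 and 30.9. The 3 groups did not overlap, and both siOGT groups were higher. PSAT1 rose to 146% of its siNC level with siOGT2 (log2 fold change 0.53, SE 0.0519, adjusted p = 9.21e-05), the largest change of the 9 genes tested. With siOGT1 it rose to 114% (0.18, SE 0.0519, adjusted p = 0.0371). The siOGT1 call ended without siNC replicate 1 (0.12, adjusted p = 0.232), without siOGT1 replicate 1 (0.20, adjusted p = 0.088) or replicate 2 (0.17, adjusted p = 0.128). It ended as well under the trimmed mean (adjusted p = 0.0754), without an intensity trend (adjusted p = 0.0855) and without a filter (adjusted p = 0.128). PSAT1 was lower with siOGT1 than with siOGT2 by 0.34 on the log2 scale (log2 fold change -0.34, SE 0.0519, adjusted p = 0.00219).

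PHGDH (ENSG00000092621, chromosome 1, 119648411 to 119744226, plus strand), the first enzyme of the route, stood far lower, at 1.43 and 1.12 FPKM with siNC, against 1.34 and 1.37 with siOGT1, while siOGT2 gave 1.59 and 1.64. The siOGT1 libraries lay between the siNC libraries, and those of siOGT2 above them. It did not pass with siOGT1 (0.05, 95% interval -0.13 to 0.23, adjusted p = 0.696) or siOGT2 (0.21, 0.03 to 0.38, adjusted p = 0.0698). The siOGT2 value passed without siNC replicate 1 (0.30, adjusted p = 0.0384), without an intensity trend (0.21, adjusted p = 0.0483) and by voom (0.35, adjusted p = 0.0113).

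ASNS (ENSG00000070669, chromosome 7, 97852118 to 97872542, minus strand), which makes asparagine and is a common reporter of ATF4 activity, was listed at a very low level in every library. It was the only gene of the 10 under the mean of 1 FPKM needed for testing, at 0.0912 and 0.112 FPKM with siNC, 0.111 and 0.143 with siOGT1 and, for siOGT2, 0.180 and 0.232. The reads behind them numbered 9 and 11 in the siNC libraries, 10 and 15 in those of siOGT1, and 16 and 19 in those of siOGT2. Summed over a group there were 20 reads with siNC (95% exact Poisson interval 12.2 to 30.9), 25 with siOGT1 (16.2 to 36.9) and 35 with siOGT2 (24.4 to 48.7), intervals that cover counting error only. When genes of all levels were tested, it passed as higher with siOGT2 (0.13 on the log2(FPKM + 1) scale, adjusted p = 0.0432) and not with siOGT1 (0.03, adjusted p = 0.618). In GENCODE release 29 its exons share 1985 of 4455 bases with a processed transcript on the same strand, AC079781.5, absent from the deposited values. How reads from the shared bases were counted is not known, so the low values do not show that ASNS was silent. The ASNS promoter held the C/EBP-ATF element shown above.

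SESN2 and DDIT4 encode sestrin 2 and REDD1, stress-induced proteins that restrain the growth kinase complex mTORC1, and they moved in opposite directions. SESN2 (ENSG00000130766, chromosome 1, 28259527 to 28282491, plus strand) was listed at 23.6 and 23.2 FPKM with siNC, 24.9 in both siOGT1 libraries, and 19.7 and 19.9 with siOGT2. It fell to 84.7% of its siNC level with siOGT2 (log2 fold change -0.23, SE 0.0328, adjusted p = 0.000883), and with siOGT1, where both libraries lay above siNC, it did not pass (0.09, 95% interval 0.01 to 0.16, adjusted p = 0.103). DDIT4 (ENSG00000168209, chromosome 10, 72273920 to 72276036, plus strand) showed the mirror image. Its libraries held 18.4 and 17.9 FPKM with siNC, against 17.2 and 16.5 with siOGT1, while siOGT2 gave 22.3 and 20.7. DDIT4 rose to 119% of its siNC level with siOGT2 (0.23, SE 0.0444, adjusted p = 0.00387), and with siOGT1, where both libraries lay below siNC, it did not pass (-0.10, 95% interval -0.20 to 0.00, adjusted p = 0.153). Compared directly, SESN2 was higher with siOGT1 than with siOGT2 (0.32, SE 0.0328, adjusted p = 0.000261) and DDIT4 lower (-0.33, SE 0.0444, adjusted p = 0.00106). The exons of DDIT4 share 847 of 2058 bases with the antisense gene DDIT4-AS1, whose reads cannot be told apart without strand.

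The comparison of siOGT1 with siOGT2 asks whether siRNAs against the same target gave the same values. Of the 9 genes tested, 2 were called higher with siOGT1 (SESN2 and PPP1R15A) and 2 lower (PSAT1 and DDIT4), beside 8.35% and 8.24% of all genes, 16.6% in all. DDIT3 was higher with siOGT1 by 0.22 and did not pass (95% interval 0.05 to 0.38, adjusted p = 0.0734). It passed with equal sums (0.24, adjusted p = 0.0363), without siOGT1 replicate 1 (0.30, adjusted p = 0.0442) and with voom (0.23, adjusted p = 0.0023). CHAC1 (-0.26, 95% interval -0.49 to -0.03, adjusted p = 0.125) and PHGDH (-0.15, -0.33 to 0.02, adjusted p = 0.227) did not pass. CHAC1 passed without siOGT2 replicate 2 (-0.44, adjusted p = 0.0137).

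Upstream of ATF4, the kinases that phosphorylate eIF2 alpha did not change alike. EIF2AK2 encodes PKR, which senses double-stranded RNA and is itself an interferon-induced gene. It was listed at 69.2 and 71.1 FPKM with siNC, 57.1 and 51.7 with siOGT1 and, for siOGT2, 43.4 and 42.3, with no overlap between groups. It fell to 77.6% of its siNC level with siOGT1 (log2 fold change -0.36, SE 0.0447, adjusted p = 0.000597) and to 61.1% with siOGT2 (-0.70, SE 0.0447, adjusted p = 5.12e-06). EIF2AK1, the haem-regulated kinase that also relays mitochondrial stress, went from 22.1 ± 0.158 FPKM to 23.8 ± 0.0271 and 23.9 ± 0.143 (SD, n = 2). It passed as higher with siOGT2 (0.11, adjusted p = 0.0257) and not with siOGT1 (0.10, adjusted p = 0.0529), and the siOGT2 call ended when any single siNC or siOGT2 library was left out (adjusted p between 0.0799 and 0.116). It ended as well under the trimmed mean (adjusted p = 0.112), equal sums (0.0744) and no intensity trend (0.0583). The siOGT1 value passed among genes with a mean of at least 5 FPKM (adjusted p = 0.0419) and by voom (0.0373). EIF2AK3 (PERK, the sensor of the endoplasmic reticulum) at 1.38, 1.40 and 1.28 FPKM and EIF2AK4 (GCN2, the sensor of uncharged tRNA) at 12.6, 13.2 and 13.8 FPKM did not pass with either siRNA. For EIF2AK4 with siOGT2 (0.13, adjusted p = 0.0514) the test did pass among genes with a mean of at least 5 FPKM (adjusted p = 0.0414), without siNC replicate 1 (0.0319) and by voom (0.0064).

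**Figure D3:**
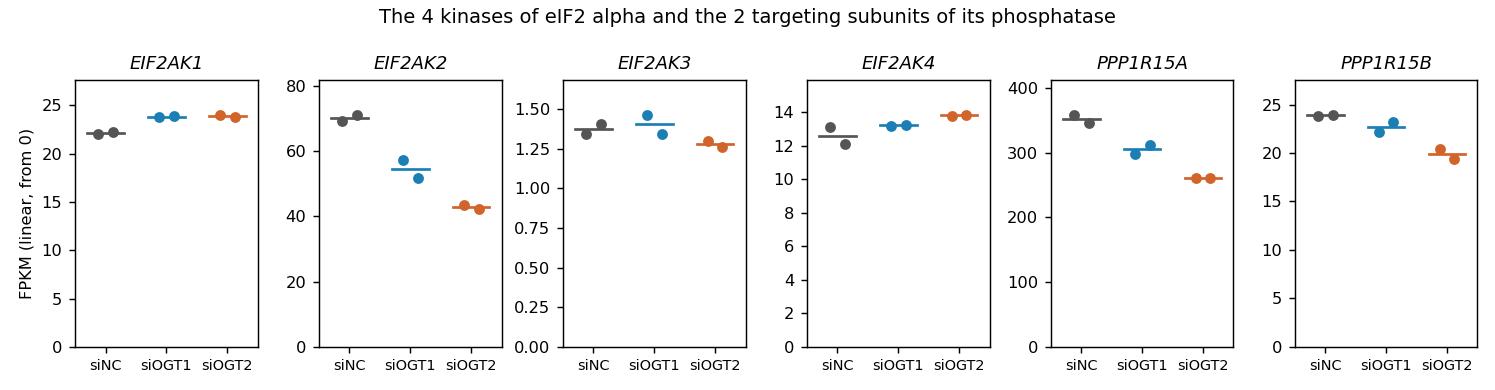
FPKM on linear axes from 0 for the 4 eIF2 alpha kinase genes and for PPP1R15A and PPP1R15B, with 1 point per library and a line at the group mean. EIF2AK2 and PPP1R15A step down from siNC to siOGT1 to siOGT2, EIF2AK3 stays between 1.26 and 1.46 FPKM, and PPP1R15B is lowest with siOGT2.

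The constitutive counterpart of PPP1R15A passed as lower with siOGT2 and not with siOGT1. PPP1R15B went from 23.9 ± 0.112 FPKM to 22.7 ± 0.732 with siOGT1 (-0.07, adjusted p = 0.259) and 19.9 ± 0.716 with siOGT2 (-0.25, adjusted p = 0.00137). The catalytic subunit gene PPP1CB rose with both, from 40.5 to 45.1 and 45.5 FPKM (0.15, adjusted p = 0.0103, and 0.16, adjusted p = 0.00389), the former call ending without siNC replicate 1 (adjusted p = 0.0841). DNAJC3, which encodes an inhibitor of PKR and PERK, rose from 20.3 to 23.9 FPKM with both (0.22 each, adjusted p = 0.00615 and 0.00341), the siOGT1 call ending without siNC replicate 1 (adjusted p = 0.0591). GCN1, a partner that activates GCN2, rose with siOGT2 alone among the tests against siNC (0.19, adjusted p = 0.00486). Of the 24 kinases, phosphatase parts and eIF2 factors listed, all of them tested, 3 rose and 3 fell with siOGT1, and 8 rose and 3 fell with siOGT2 (4 and 4 under the trimmed mean). That is 25% and 45.8% of the list, beside 17.6% and 35.5% of all genes. The siOGT1 counts became 0 and 1 without siNC replicate 1, and 2 and 1 without siNC replicate 2 or without siOGT1 replicate 1. The siOGT2 counts became 4 and 2 without either siNC library or without siOGT2 replicate 1.

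In a list of other transcription factors drawn up for the response, more were called lower than higher. The list is broad and includes the partner JUN and the interferon-induced BATF2. Of 14 tested from a list of 17, 4 fell and none rose with siOGT1, and 9 fell and 1 rose with siOGT2, with medians of -0.04 and -0.22. Of all genes, 8.1% fell and 9.51% rose with siOGT1, and 13.4% fell and 22.1% rose with siOGT2. ATF3, a repressor induced by ATF4 and by many other stresses, was listed at 65.3 and 66.3 FPKM with siNC, against 50.2 and 54.6 with siOGT1, while siOGT2 gave 35.5 and 34.3. It fell by 0.32 (adjusted p = 0.000774) and 0.90 (adjusted p = 1.08e-06), to 53.1% of the siNC level with siOGT2. JUN, a partner of ATF factors, fell from 89.9 to 73.7 and 65.2 FPKM (-0.28, adjusted p = 0.00121, and -0.46, adjusted p = 3.91e-05). BATF2, an interferon-induced leucine zipper factor, fell from 15.2 to 6.10 and 2.69 FPKM (-1.20 and -2.13, adjusted p = 6.2e-05 and 1.09e-06). MAFG (-0.34, adjusted p = 0.00024) and ATF5 (-0.29, adjusted p = 0.00335), which is translationally controlled like ATF4, fell with siOGT2 and did not pass with siOGT1. The gene that rose with siOGT2 was NUPR1, a stress-induced chromatin protein, at 1.56 FPKM with siNC and 2.51 with siOGT2 (0.45, adjusted p = 0.018); it was named after its values were seen. With siOGT2, 5 fell and 1 rose without siNC replicate 1, and 6 fell and none rose without siOGT2 replicate 2 or without a low-value filter, so the NUPR1 call was lost in both of the latter.

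Enzymes of amino acid and one-carbon synthesis were mostly called as higher with siOGT2. Of 18 tested from a list of 20, none was called with siOGT1 by limma, although the replicate block and voom each called 1 higher. With siOGT2, 10 rose and 1 fell, with a median of 0.17, which is 61.1% called beside 35.5% of all genes. The direct contrast of the siRNAs called 1 higher and 3 lower with siOGT1, 22.2% beside 16.6% of all genes. The mitochondrial folate enzymes ALDH1L2 and MTHFD2 rose from 2.63 to 3.66 FPKM (0.36, adjusted p = 0.00401) and from 3.28 to 4.33 (0.32, adjusted p = 0.00679). ALDH18A1 of proline synthesis rose from 16.7 to 19.7 (0.23, adjusted p = 0.00174). GPT2, a mitochondrial alanine transaminase, rose from 2.69 to 3.63 (0.32, adjusted p = 0.0134), a call lost without siNC replicate 2 (adjusted p = 0.0914) or siOGT2 replicate 2 (adjusted p = 0.0998). The gene that fell was GLUL, glutamine synthetase, from 13.3 to 11.1 FPKM (-0.24, adjusted p = 0.00409). The count of rises was sensitive: 4 without a low-value filter, 6 with a mean of at least 5 FPKM, 5 under the trimmed mean or equal sums, 6 under quantile normalization, 4 without siNC replicate 2, and 5 without siNC replicate 1 or either siOGT2 library, with 1 fall in each. Compared directly, ALDH1L2 (-0.28, adjusted p = 0.0256) and MTHFD2 (-0.27, adjusted p = 0.0254) were lower with siOGT1 than with siOGT2. Both calls ended without siOGT1 replicate 1 (adjusted p = 0.143 and 0.146) or siOGT2 replicate 2 (0.161 and 0.139), and that of MTHFD2 also without siOGT2 replicate 1 (0.0724). ALDH18A1 (-0.11, adjusted p = 0.0669) and GPT2 (-0.10, adjusted p = 0.429) did not pass.

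**Figure D4:**
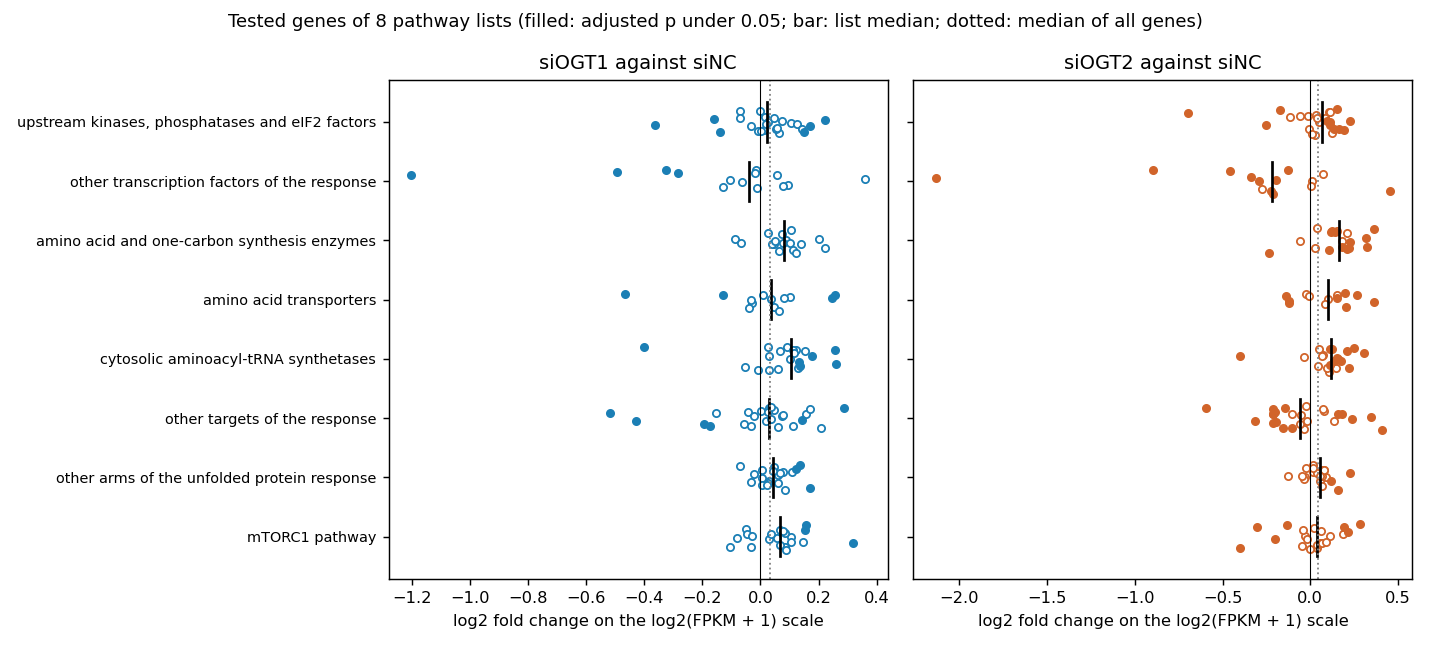
Log2 fold change against siNC on the log2(FPKM + 1) scale of each tested gene in 8 pathway lists, for siOGT1 (left) and siOGT2 (right); filled points passed an adjusted p of 0.05, bars mark list medians and the dotted line the median of all genes. With siOGT2 the synthesis enzymes have a median of 0.17 and the other transcription factors a median of -0.22.

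Amino acid transporters went both ways. Of 13 tested from a list of 18, 2 rose and 2 fell with siOGT1, and 5 rose and 3 fell with siOGT2. That is 30.8% and 61.5% called, beside 17.6% and 35.5% of all genes. SLC1A5, which imports glutamine, rose with both siRNAs, from 7.46 FPKM to 9.02 and 9.89 (0.24, adjusted p = 0.00366, and 0.36, adjusted p = 0.000231). SLC7A11, the cystine importer, rose with siOGT2 from 15.4 to 18.7 FPKM (0.26, adjusted p = 0.00205), as did SLC38A1 (0.20, adjusted p = 0.00242) and the cationic transporter SLC7A1 (0.15, adjusted p = 0.0135). The SLC7A1 call was lost without siNC replicate 1 (adjusted p = 0.0813), siNC replicate 2 (0.0501) or siOGT2 replicate 2 (0.099). SLC36A1, a lysosomal amino acid transporter, fell with siOGT1 from 11.3 to 7.91 FPKM (-0.46, adjusted p = 9.77e-05) and stood at 11.1 with siOGT2 (-0.03, 95% interval -0.12 to 0.07). With siOGT2 the rises and falls became 4 and 0 without siNC replicate 1, 3 and 1 without siNC replicate 2, 4 and 1 without siOGT2 replicate 1, and 3 and 0 without siOGT2 replicate 2. With siOGT1 they became 1 and 1 without either siNC library or without siOGT1 replicate 2.

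Cytosolic aminoacyl-tRNA synthetases, several of which are ATF4 targets, rose in 5 of 20 with siOGT1 and 11 of 20 with siOGT2, and 1 fell with each. Of all genes, 9.51% and 22.1% were called higher. SARS1 rose from 72.2 FPKM to 86.7 and 85.9 (0.26, adjusted p = 0.000649, and 0.25, adjusted p = 0.000538), and AARS1 from 26.4 to 31.7 and 31.0 (0.25, adjusted p = 0.000689, and 0.22, adjusted p = 0.000986). EPRS1 rose from 49.2 to 55.8 and 61.1 (0.18, adjusted p = 0.00573, and 0.31, adjusted p = 0.000155), the siOGT1 call ending without siNC replicate 1 (adjusted p = 0.0517). FARSB rose with siOGT2 from 19.9 to 23.2 (0.21, adjusted p = 0.00171). The synthetase that fell was WARS1, an interferon-induced member, from 19.7 to 14.7 FPKM with both (-0.40 each, adjusted p = 0.000996 and 0.000593). The number that rose with siOGT2 was 5 under the trimmed mean, 6 with equal sums, 6 without siNC replicate 1, and 5 without siNC replicate 2 or siOGT2 replicate 2. With siOGT1 it was 2 without siNC replicate 1 and 10 by voom on recovered reads.

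Of 25 further targets of the response tested from a list of 33, 2 rose and 4 fell with siOGT1, and 5 rose and 11 fell with siOGT2 (3 and 6 without siNC replicate 2, 3 and 7 without siOGT2 replicate 2). The shares called were 24% and 64%, beside 17.6% and 35.5% of all genes. PMAIP1, the death-promoting protein NOXA, fell from 124 FPKM to 91.5 and 81.4 (-0.43, adjusted p = 1.62e-05, and -0.60, adjusted p = 1.14e-06). TXNIP, a thioredoxin-binding protein, fell with siOGT2 from 925 to 744 (-0.31, adjusted p = 7.02e-05). ERO1A, an oxidase of the endoplasmic reticulum downstream of CHOP, rose with siOGT2 from 8.54 to 11.1 (0.35, adjusted p = 0.00129). The transcription factor gene CREB3L2 rose with both, from 18.4 to 22.7 and 21.9 (0.29, adjusted p = 0.000655, and 0.24, adjusted p = 0.00116). JDP2, a leucine zipper repressor, fell with siOGT1 from 1.76 to 0.924 FPKM (-0.52, adjusted p = 0.002), stood at 2.02 with siOGT2, and differed between the siRNAs (-0.65, adjusted p = 0.000591).

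The genes whose levels ran most like those of ATF4 and TRIB3 over the 6 libraries were listed by Pearson's r on log2(FPKM + 1), among 2696 genes with a range of at least 0.3. The points are 3 groups of 2 libraries, and no p is given. For TRIB3, whose groups stood apart, r largely follows the group means. No comparison passed for ATF4, and its siOGT1 libraries alone ran from 268 to 287 FPKM. Its r therefore also reflects differences between libraries of a group, and the minimum range was not asked of ATF4 itself. For ATF4 the most similar genes included PLD6 (r = 0.943), SHB (0.922), SKA3 (0.92) and ASF1B (0.918), and 10 genes reached 0.9. For TRIB3 they were CRYAB (0.997), APH1B (0.997), SETD7 (0.996), PRDX4 (0.995) and MGARP (0.995), and 302 genes reached 0.9. CRYAB, a small heat shock protein, went from 12.1 FPKM to 15.2 and 16.5, close to the path of TRIB3.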

How the data were processed

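The tools named per the submitters' processing notes are cutadapt 1.15, a read trimmer, and HISAT2, an aligner, with the build GRCh38. Not given in the sources used here were the counting program, its annotation and any use of strand. The authors deposited 1 table of FPKM values with 1 column per library. Of its genes, 17114 were above 0 in at least 1 library. Whole reads were recovered from ratios between values (tolerance 0.01 reads) for 100.00% of those, and were used for depth and 1 alternative. Symbols came from a gene name table (19418 identifiers with a symbol) and positions from GENCODE release 29.

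Genes with a mean of at least 1 FPKM were tested on log2(FPKM + 1) with limma 3.58.1 in R 4.3.3: a mean per group over all 6 libraries, eBayes with an intensity trend, 3 residual and 6.31 prior degrees of freedom, two-sided, Benjamini-Hochberg adjusted over all 10547 genes. The added 1 shrinks fold changes of low genes. The fit was run on simulated reads as a check of the code only. The spread between simulated libraries was set beforehand and not estimated from these libraries, so no call rests on that check. Alternatives covered pseudocounts of 0.1 and 5, filters, scalings, the variance model, the replicate block, only the groups compared, each library left out, and, added after seeing the data, voom on recovered reads.

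The 10 genes and the lists were chosen with earlier results of these data known. The text names OGT, the 10 genes, the 4 eIF2 alpha kinases, up to 5 called genes per list with the smallest p against siNC, and the 5 genes most like ATF4 and TRIB3, of which 1 is not reported here; NUPR1 was added outside this rule. No libraries held identical values.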

Additional observations from a re-analysis of the deposited data

Results flagged for a closer look

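The effects of siOGT1 and siOGT2 differed in 4 of the 9 genes tested, by limma on the direct contrast of the siRNAs. SESN2 was higher with siOGT1 by 0.32 on the log2 scale and PPP1R15A by 0.23. PSAT1 (-0.34) and DDIT4 (-0.33) were lower with siOGT1. For SESN2 and DDIT4 the values against siNC had opposite signs with the siRNAs, although only those with siOGT2 passed. In this contrast 16.6% of all tested genes passed.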

How the results depend on the processing

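No log2 fold change of a named gene changed sign with a call, in any of the 17 alternatives. The number of genes called with siOGT1 was 1138 without a low-value filter, and that of siOGT1 against siOGT2 was 1017. With each library left out in turn, 945 to 1737 genes were called with siOGT1, 2222 to 3749 with siOGT2 and 816 to 1533 between the siRNAs. An arm with 1 library left is assumed to vary like the other groups. Of the 10 stress response genes, 2 to 3 were then called with siOGT1, 5 to 6 with siOGT2 and 4 to 5 between the siRNAs. The labels number the libraries 1 and 2 in each group without saying that a number marks a shared culture. Deviations of same-numbered libraries correlated at -0.022, -0.026 and 0.049. Noise of single libraries enters these values, so they cannot decide whether same-numbered libraries shared a culture. With the replicate block 1773, 3636 and 1674 genes were called, and 3, 6 and 4 of the stress response genes. Depth limits ASNS, with 9 to 19 reads per library, and CHAC1, with 98 to 147.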

Other observations

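The other arms of the unfolded protein response, run by IRE1 and ATF6 in the endoplasmic reticulum, gave few calls. Of 20 genes tested, 3 rose with each siRNA and none fell, which is 15% beside 17.6% and 35.5% of all genes called. HYOU1, a chaperone, rose with both (0.17, adjusted p = 0.0162, and 0.16, adjusted p = 0.0129), XBP1 (0.12, adjusted p = 0.0321) and ATF6 (0.14, adjusted p = 0.0359) with siOGT1, and SEL1L (0.22, adjusted p = 0.00358) and MANF (0.12, adjusted p = 0.0241) with siOGT2. Without siNC replicate 1 or 2 none of the 20 passed with siOGT1, and 1 passed without either siOGT1 library or under the trimmed mean. With siOGT2, the HYOU1 and MANF calls ended without siNC replicate 2 or either siOGT2 library, and that of MANF also without siNC replicate 1. The MANF call ended as well under the trimmed mean (adjusted p = 0.101), with equal sums (0.0678) and by voom (0.106). That of HYOU1 ended by voom too (adjusted p = 0.0745), while that of SEL1L held in all 17 alternatives.

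Among 21 genes of the mTORC1 pathway tested, on which SESN2 and DDIT4 act, 3 rose with siOGT1 and none fell, and 3 rose and 4 fell with siOGT2. That is 14.3% and 33.3% called, near the 17.6% and 35.5% of all genes. AKT1S1, an inhibitory partner of the complex, fell with siOGT2 from 17.9 to 14.3 FPKM (-0.30, adjusted p = 0.000695). The Rag GTPases RRAGB and RRAGC, which bring mTORC1 to the lysosome, fell from 10.1 to 7.41 (-0.40, adjusted p = 0.00129) and from 26.8 to 23.3 (-0.20, adjusted p = 0.0018). Among the genes that rose, SEH1L went from 6.31 to 7.49 FPKM with siOGT2 (0.22, adjusted p = 0.00812). SAR1B went from 10.5 to 11.9 FPKM with siOGT1 (0.16, adjusted p = 0.0228). The SEH1L call ended without siNC replicate 1 or siOGT2 replicate 2. That of SAR1B ended under the trimmed mean and without any single siNC or siOGT1 library. AKT1S1, RRAGB and RRAGC were higher with siOGT1 than with siOGT2, by 0.20 (adjusted p = 0.0111), 0.32 (adjusted p = 0.00787) and 0.24 (adjusted p = 0.00133). The AKT1S1 difference no longer passed without siOGT1 replicate 2 (adjusted p = 0.0651) or siOGT2 replicate 2 (0.0811), and that of RRAGB without siOGT2 replicate 1 (0.0586). With siOGT2 the rises and falls became 1 and 3 without siNC replicate 2 and 0 and 3 without siOGT2 replicate 2. With siOGT1, 1 rose without siNC replicate 1 and none without siNC replicate 2 or either siOGT1 library.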
